A study of Saccharomyces cerevisiae with 8 samples.

Results

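The genes examined were the 31 protein-coding genes of ergosterol synthesis and sterol regulation in budding yeast, of 6002 protein-coding genes on the nuclear chromosomes. They were taken by their known function: 9 enzymes of the early mevalonate branch, 15 genes of the late sterol branch, 2 redox partners, 2 regulators and 3 genes of sterol esterification and transport. For each gene, start peaks were sought in lists of CAGE peaks, where CAGE, cap analysis of gene expression, marks the capped 5′ ends of RNA. Peaks were tied to genes by position: any same-strand peak touching the interval between 300 bp before and 100 bp after the annotated 5′ end was called a start peak. In all 31 members this annotated 5′ end is the first base of the start codon, not the start of the RNA.

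The libraries came from BY4741, a haploid of mating type a that cannot make histidine, leucine, methionine or uracil. Each strain carried a synthetic human HPRT1 locus in forward order (synHPRT1) or with its base order reversed (synHPRT1R). There were 4 groups of 2 libraries: synHPRT1R on a yeast artificial chromosome (YAC), synHPRT1 on a YAC, synHPRT1R integrated and synHPRT1 integrated. The study asked whether the synthetic DNA is transcribed in yeast and how it compares with the host genome. YAC strains grew in SC-Leu, a synthetic medium without leucine, and integrated strains in YPD, a rich medium, so context and medium cannot be told apart. All cultures grew at 30 °C, were diluted to an OD of 0.1 and were collected after 6 h near an OD of 0.6. Libraries used 5 µg of RNA and 20 PCR cycles. The sources used here do not give how many transformants stand behind a strain. Nothing says that replicates were separate cultures, so the spread behind each p-value is that between libraries and may be technical.

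Ergosterol is the main sterol of fungal membranes and the counterpart of cholesterol. The mevalonate branch builds farnesyl pyrophosphate from acetyl-CoA, with HMG-CoA reductase as its main control point, and the late branch turns it into squalene, lanosterol and ergosterol. Allylamine antifungals act on squalene epoxidase (Erg1) and azoles on lanosterol demethylase (Erg11). The zinc cluster factors Upc2 and Ecm22 bind sterol regulatory elements in the promoters of many of these genes.

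The regulatory element has the core TCGTATA, and TCGTTTA is a close form of it. The windows below, read from the reference genome (RefSeq, the same assembly as build sacCer3), run from 250 bases before to 50 bases after the first base of the gene, 5′ to 3′ on the gene's strand. Capitals mark each copy of either motif on either strand, so that a copy on the opposite strand reads TATACGA or TAAACGA. ERG2 and ERG9 are shown as the members with the highest median percentile of −log10 p, and ERG20 and ERG3 as those with the largest differences between contexts. ERG13, with 2 copies, had no start peak in any library, and ERG11, the azole target, had one in 1 library.
ERG2, plus strand, chrXIII:667287-667586: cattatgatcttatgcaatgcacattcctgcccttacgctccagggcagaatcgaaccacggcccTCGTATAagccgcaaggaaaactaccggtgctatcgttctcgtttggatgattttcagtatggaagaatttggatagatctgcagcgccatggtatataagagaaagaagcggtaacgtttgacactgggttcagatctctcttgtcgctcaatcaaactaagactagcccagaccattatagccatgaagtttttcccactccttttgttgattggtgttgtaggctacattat
ERG9, plus strand, chrVIII:484595-484894: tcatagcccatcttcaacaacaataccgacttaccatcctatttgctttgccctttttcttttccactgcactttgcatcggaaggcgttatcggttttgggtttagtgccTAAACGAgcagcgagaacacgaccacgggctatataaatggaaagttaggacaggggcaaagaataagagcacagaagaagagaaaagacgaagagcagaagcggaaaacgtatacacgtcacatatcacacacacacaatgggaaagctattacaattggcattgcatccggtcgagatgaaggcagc
ERG20, plus strand, chrX:104764-105063: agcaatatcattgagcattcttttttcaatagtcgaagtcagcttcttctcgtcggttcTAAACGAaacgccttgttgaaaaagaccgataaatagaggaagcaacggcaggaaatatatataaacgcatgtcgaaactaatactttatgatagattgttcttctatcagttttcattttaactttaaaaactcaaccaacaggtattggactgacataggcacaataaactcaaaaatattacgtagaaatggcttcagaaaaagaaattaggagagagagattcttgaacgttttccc
ERG13, minus strand, chrXIII:20486-20785: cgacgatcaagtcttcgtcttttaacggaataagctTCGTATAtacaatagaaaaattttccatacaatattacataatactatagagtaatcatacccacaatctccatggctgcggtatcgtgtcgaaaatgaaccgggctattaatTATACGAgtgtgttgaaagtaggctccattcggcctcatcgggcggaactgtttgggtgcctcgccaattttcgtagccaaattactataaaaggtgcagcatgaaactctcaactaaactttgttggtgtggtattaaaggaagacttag
ERG3, plus strand, chrXII:253611-253910: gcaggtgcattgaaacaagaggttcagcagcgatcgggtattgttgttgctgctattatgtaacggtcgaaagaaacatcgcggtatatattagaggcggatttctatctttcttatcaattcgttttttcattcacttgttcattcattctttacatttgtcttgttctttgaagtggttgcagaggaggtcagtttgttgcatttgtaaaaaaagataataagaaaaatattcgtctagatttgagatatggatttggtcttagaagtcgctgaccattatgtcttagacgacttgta
ERG11, minus strand, chrVIII:121634-121933: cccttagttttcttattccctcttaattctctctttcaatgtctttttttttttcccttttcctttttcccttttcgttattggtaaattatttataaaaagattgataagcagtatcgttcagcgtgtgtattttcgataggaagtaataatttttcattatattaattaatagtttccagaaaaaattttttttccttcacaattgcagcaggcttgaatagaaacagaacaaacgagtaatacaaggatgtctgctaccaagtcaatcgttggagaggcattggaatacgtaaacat

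Either motif was found in the windows of 15 of the 31 members (48.4%), against 563 of 6001 genes (9.38%) whose full window lay on a chromosome. TCGTATA was found in 3 members (9.68%) and 249 genes (4.15%), and TCGTTTA in 12 members (38.7%) and 329 genes (5.48%), with some of the genes holding both. The motifs differ in 1 base, so no single match counts for both. Matches lay in 5 of 9 mevalonate genes (ERG10, ERG13, ERG8, MVD1 and ERG20) and in 7 of 15 late genes (ERG9, ERG7, ERG26, ERG27, ERG29, ERG2 and ERG4). NCP1, ECM22 and ARE1 completed the 15. A match here is a run of letters and says nothing of binding. Many of these genes are known targets of Upc2 and Ecm22, so a high share is no independent observation.

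**Figure D1:**
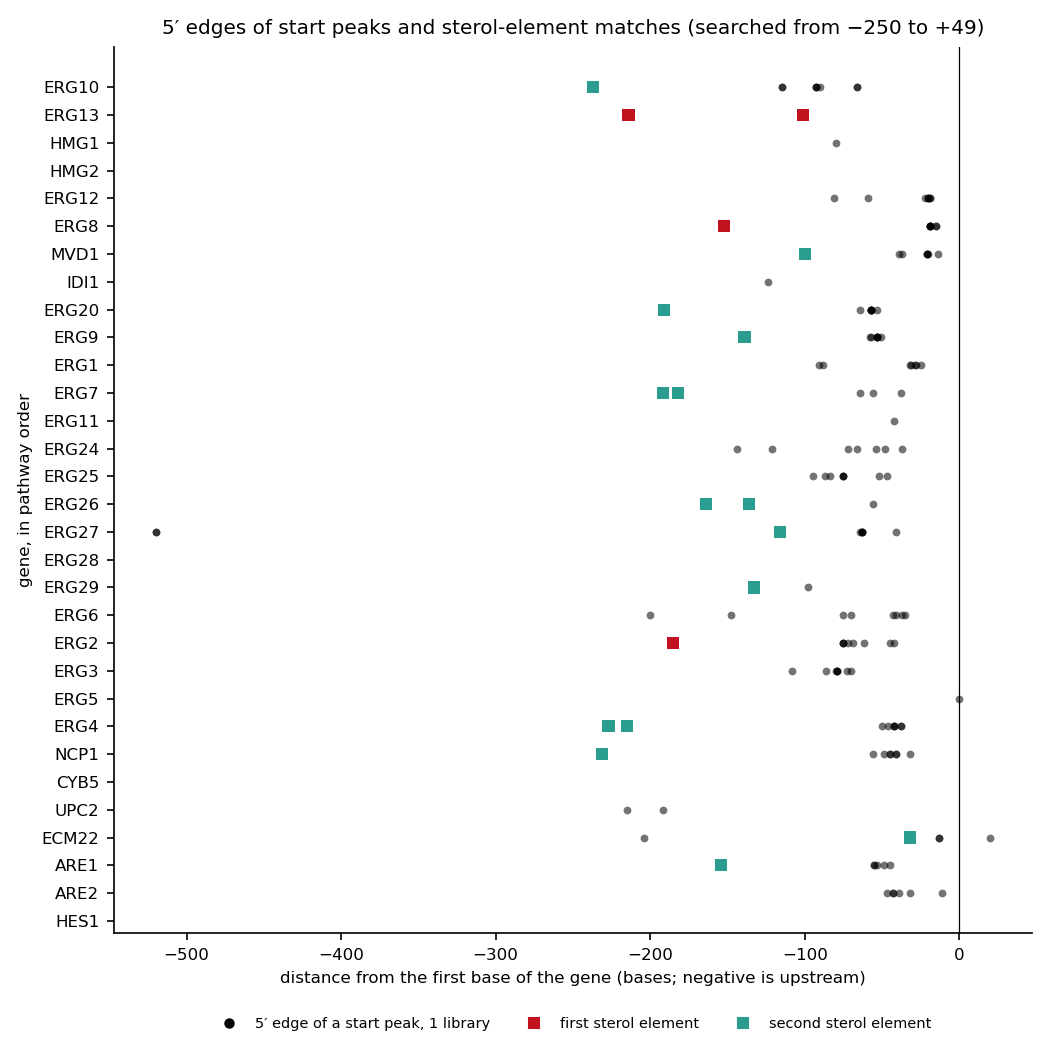
Each row is 1 member, and the x axis is the distance in bases from the first base of the gene, negative upstream. Black dots are the 5′ edges of start peaks, 1 per library, red squares are TCGTATA matches and green squares TCGTTTA matches. In rows that hold both, the motif matches lay upstream of every peak edge, except in ERG27 and ECM22. The edges near 520 bases upstream belong to ERG27 in 2 libraries.

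Motif copies lay 32 to 237 bases before the gene, the nearest in ECM22 and the farthest in ERG10. The 5′ edges of the members' 140 start peaks lay closer, at a median of 53 bases upstream (quartiles 75 and 38), and 98.6% of them were upstream of the gene. These distances are from the start codon, and an edge is the border of a listed interval, not its summit. Median summit positions of the members ran from −106.5 (UPC2) to 99 (ERG5), where positive is inside the gene, and were negative only in UPC2 and IDI1. A summit is the point of most tags in an interval. The sources do not give the length over which a tag was counted, so these summits do not place RNA starts inside genes. Over the 19696 start peaks of all genes the median edge was also 53 bases upstream, and 95.5% of the edges were upstream. The narrowest peak was 200 bp wide in every list, and 45 member peaks (32.1%) had this width. Among all peaks on the yeast chromosomes the share was 39.0% to 47.6% in a library. In ERG20 the edge stood 57 bases before the gene in 6 of 8 libraries, with its range from 53 to 64 bases. In ERG9 it lay 51 to 58 bases before the gene, and in ERG8 15 to 19 bases. ERG6, ERG24 and ERG1 had edges that varied more, at 35 to 200, 37 to 144 and 25 to 91 bases.

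Of the 31 members, 9 (29.0%) had a start peak in all 8 libraries, against 1239 of all genes (20.6%). These were ERG10, ERG12 and ERG20 of the mevalonate branch, and ERG9, ERG25, ERG27, ERG6, ERG2 and ERG3 of the late branch. Another 17 members had one in 1 to 7 libraries, against 45.6% of all genes, and 5 (16.1%) in none, against 33.8%. So 26 members had one in at least 1 library, against 66.2% of all genes. The 5 were ERG13, which encodes HMG-CoA synthase, HMG2, an HMG-CoA reductase, ERG28, the scaffold of the C-4 demethylation enzymes, CYB5, which encodes cytochrome b5, and HES1, which encodes an oxysterol-binding protein homologue. A missing peak means that no peak passed the authors' threshold, not that the gene was silent.

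Position within a list was read as the percentile of the start peak by −log10 p among the native peaks of its strand's list, where 100 is the strongest. Over the 26 members with a start peak, the median of their median percentiles by −log10 p was 49.2, against 42.9 over all 3973 such genes. Over the 9 listed throughout it was 82.8, against 78.0 over 1239 genes.

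**Figure D2:**
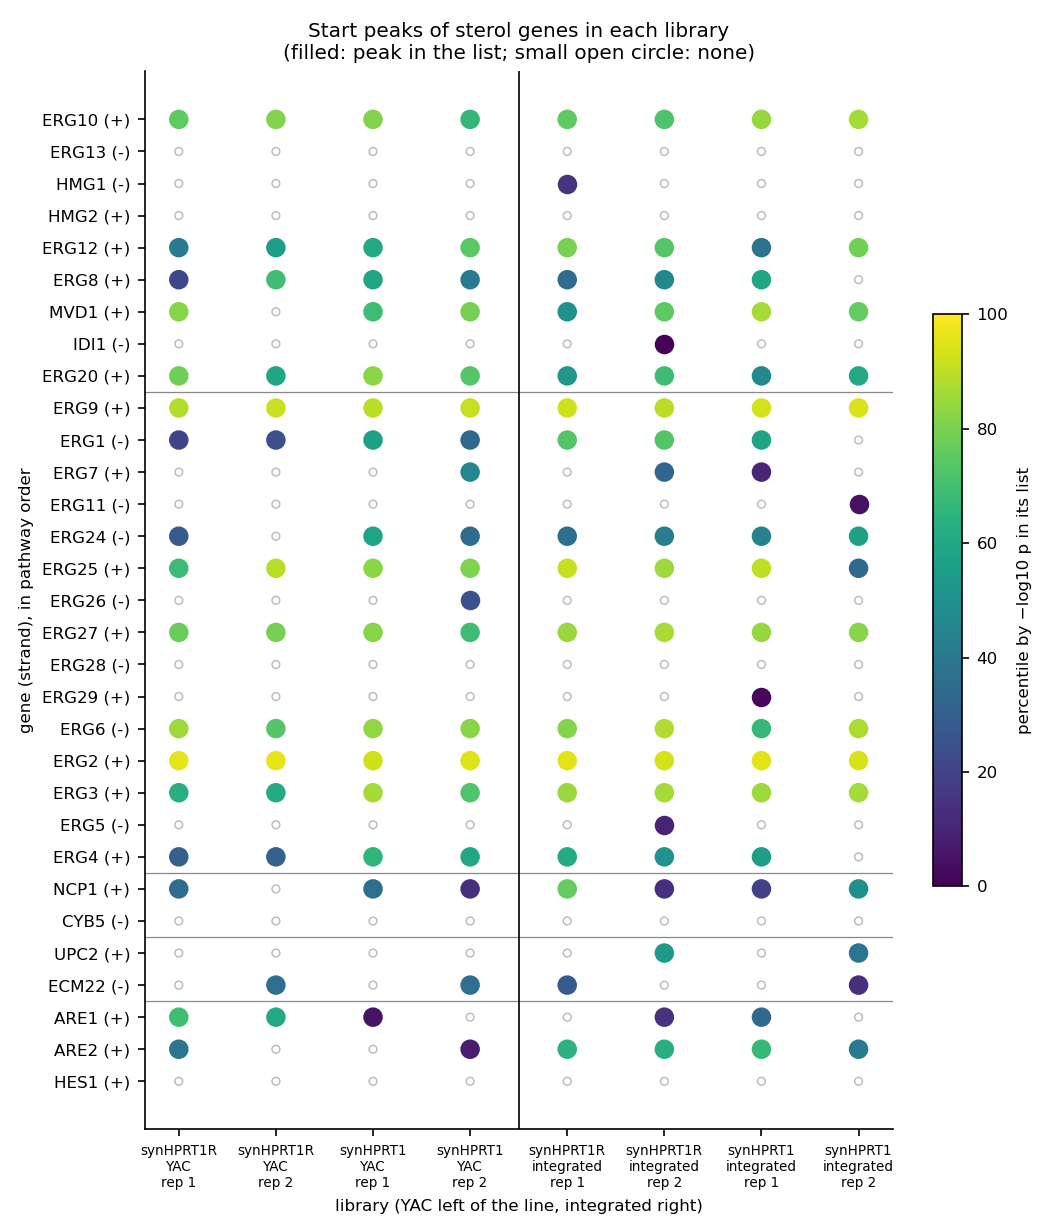
Rows are the 31 members in pathway order with their strand, and columns are the 8 libraries, YAC left of the line. Filled circles mark a start peak, coloured by its percentile of −log10 p among the native peaks of its strand's list (100 is the strongest), and small open circles mark none. The 9 rows filled throughout include ERG2 and ERG9 near the top of every list.

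The libraries held 2995 to 3367 native peaks, listed for each strand, and 39.9% to 44.4% of all genes had a start peak in a library. Read depth is unknown as a count. The authors' fold and p of each peak were used to solve for the summit pileup, the number of tags over the summit, which came out whole within 0.1 for 98.5% to 98.9% of a library's peaks. One tag stands for 1 capped molecule whatever the gene's length, before PCR. The genome-wide background was 41.0 to 52.7 tags in plus-strand lists and 67.0 to 94.8 in minus-strand lists. Of the mating type a genes, a start peak was listed for MFA1, MFA2, STE6 and AGA2 in all 8 libraries, for STE2 in 2 and for BAR1 in none. The alpha genes MF(ALPHA)2, SAG1 and STE3 were listed in none of them and MF(ALPHA)1 in 1.

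In the mevalonate branch, ERG10, MVD1 and ERG12 stood highest by median percentile of −log10 p, and ERG20 had the highest median pileup. ERG10, acetoacetyl-CoA thiolase, had 862 and 791 tags at its summit in synHPRT1R YAC libraries and 1068 and 439 in synHPRT1 YAC libraries. It had 727 and 552 tags in synHPRT1R integrated libraries and 1325 and 1564 in synHPRT1 integrated libraries. The contexts overlapped, and the median percentile by −log10 p was 78.5. HMG1, the reductase isozyme regarded as the main one in aerobic growth, had a start peak in synHPRT1R integrated replicate 1 alone. That peak had 156 tags, a deposited fold of 1.94 and rank 1188 of 1404 in its list. The other isozyme, HMG2, had none. IDI1, isopentenyl diphosphate isomerase, likewise had 1 start peak, in synHPRT1R integrated replicate 2, with 99 tags and rank 1534 of 1552.

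Of the kinases and the decarboxylase of the branch, MVD1 (median percentile 76.0) and ERG12 (66.9) stood higher in the lists than ERG8 (46.7). ERG12, mevalonate kinase, had 263 and 264 tags in synHPRT1R YAC libraries, 418 and 620 in synHPRT1 YAC libraries, 886 and 589 in synHPRT1R integrated libraries, and 197 and 891 in synHPRT1 integrated libraries. Its lowest value was in an integrated library, although the other 3 integrated libraries held 3 of its 4 highest. ERG8, phosphomevalonate kinase, had a start peak in 7 libraries with 161 to 432 tags, and none in synHPRT1 integrated replicate 2. MVD1, mevalonate pyrophosphate decarboxylase, also had one in 7, with 278 to 1643 tags, and none in synHPRT1R YAC replicate 2.

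ERG20, farnesyl pyrophosphate synthase, closes the branch and feeds sterols, dolichol, ubiquinone and prenylated proteins. It had 2025 and 747 tags in synHPRT1R YAC libraries and 2143 and 1276 in synHPRT1 YAC libraries, against 750 and 990 in synHPRT1R integrated libraries and 709 and 1061 in synHPRT1 integrated libraries. The top 3 values were YAC libraries, and the fourth YAC library lay within the integrated range. Its deposited fold was 2.51 to 8.21, with a local background of 226 to 339 tags, several times that of its list. The start peak of QCR8, a subunit gene of the cytochrome bc1 complex, lay 1340 to 1452 bp downstream of its summit on the same strand with 10229 to 14927 tags. ERG20 ranked 16 of the 26 members with a start peak by fold (median percentile 37.4), 10 by −log10 p (64.6). The part of the QCR8 peak in this background and in these ranks was not tested.

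Late-branch genes reached the highest levels of the pathway. ERG2, C-8 sterol isomerase, had 8469 and 5826 tags in synHPRT1R YAC libraries, 3572 and 4573 in synHPRT1 YAC libraries, 6076 and 3437 in synHPRT1R integrated libraries, and 6095 and 4502 in synHPRT1 integrated libraries. It stood at ranks 59 to 120 of lists of 1621 to 1815 peaks, and the contexts overlapped. ERG9, squalene synthase, the first step committed to sterols, had 1985 and 2337 tags in synHPRT1R YAC libraries and 2224 and 2200 in synHPRT1 YAC libraries. It had 2810 and 1821 tags in synHPRT1R integrated libraries and 3669 and 4625 in synHPRT1 integrated libraries. In tags, not scaled for depth, its 4 YAC values lay close together and the integrated values spread on both sides of them. On the log2 scale relative to the median gene, used in the level test below, this did not hold. There the YAC values ran from 0.90 to 1.70 and the integrated values from 0.99 to 2.31, and the lowest was synHPRT1R YAC replicate 1. Its deposited folds of 36.5 to 45.4 were near the ceiling of the lists, where no fold passed 49.99.

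ERG3, C-5 sterol desaturase, was next after ERG2 and ERG9 by median percentile (85.1). It had 497 and 322 tags in synHPRT1R YAC libraries and 1652 and 576 in synHPRT1 YAC libraries, against 1277 and 1371 in synHPRT1R integrated libraries and 1383 and 1532 in synHPRT1 integrated libraries. Of the YAC libraries, 3 lay below every integrated library and the fourth, synHPRT1 YAC replicate 1, lay above them all.

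The enzymes ERG25, ERG6 and ERG27 of methyl group removal and transfer had start peaks throughout, and ERG27 was the one of the 9 members listed in all 8 libraries whose contexts did not overlap. ERG25, C-4 methyl sterol oxidase, had 608 and 1578 tags in synHPRT1R YAC libraries, 1184 and 916 in synHPRT1 YAC libraries, 2475 and 1238 in synHPRT1R integrated libraries, and 2151 and 205 in synHPRT1 integrated libraries. Its lowest and highest values were both in integrated libraries. ERG6, C-24 sterol methyltransferase, had 737 to 2074 tags in YAC libraries and 737 to 1852 in integrated libraries. ERG27, 3-keto sterol reductase, had 915 and 727 tags in synHPRT1R YAC libraries and 1107 and 505 in synHPRT1 YAC libraries, against 1256 and 1453 in synHPRT1R integrated libraries and 1401 and 1129 in synHPRT1 integrated libraries. Every YAC library lay below every integrated one. In synHPRT1R YAC replicate 1 and synHPRT1 integrated replicate 1, however, the listed interval began 520 bases upstream and also covered the start window of its neighbour MIM2. The summit in synHPRT1R YAC replicate 1 lay at position −329 from the gene's first base, inside MIM2, so those 915 tags are not at the ERG27 start. In synHPRT1 integrated replicate 1 the summit lay 69 bases inside ERG27.

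**Figure D3:**
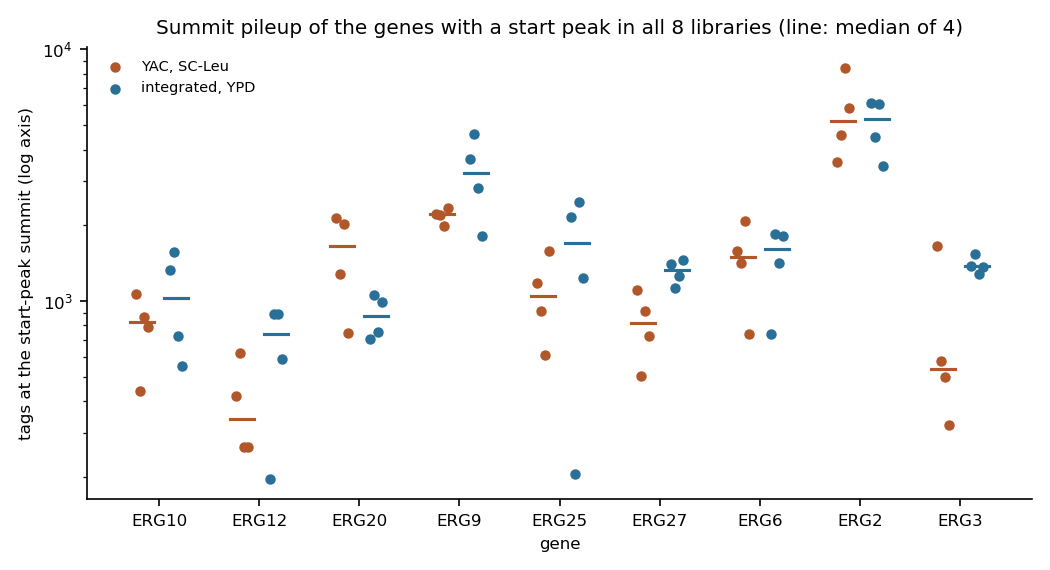
The y axis is the number of tags at the start-peak summit on a log scale, for the 9 members with a start peak in all 8 libraries. Points are libraries (YAC, SC-Leu, orange, left, and integrated, YPD, blue, right), and short lines are medians of 4. ERG2 lies highest, between 3437 and 8469 tags, and ERG27 is the gene of the 9 whose contexts do not overlap.

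The rest of the late branch was weaker or rarely listed. ERG1, squalene epoxidase, had a start peak in 7 libraries, with 172 to 537 tags in the 4 YAC libraries and 516 to 933 in the 3 integrated ones. ERG24, C-14 reductase, had 238 to 559 tags in 7 libraries and ERG4, which catalyses the final reduction to ergosterol, 130 to 489 in 7. Median percentiles by −log10 p of 57.4 for ERG1, 41.9 for ERG24 and 55.4 for ERG4 placed them near the middle of the lists. ERG7, lanosterol synthase, was listed in 3 libraries with 95 to 221 tags. ERG26, a C-3 sterol dehydrogenase, was listed in synHPRT1 YAC replicate 2 with 186 tags, ERG29 in synHPRT1 integrated replicate 1 with 77, and ERG5, C-22 desaturase, in synHPRT1R integrated replicate 2 with 121.

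ERG11, the azole target, had a start peak in synHPRT1 integrated replicate 2, with 151 tags, a fold of 1.43 and rank 1445 of 1506. The start peak of SOD2, which encodes mitochondrial superoxide dismutase, lay upstream on the same strand with 5021 tags in that library. In the 7 libraries without an ERG11 start peak it had 2721 to 4378 tags, 1849 to 1876 bp from the gene's start. ERG28 lay near a strong peak too, that of SAH1, 943 to 984 bp downstream, with 2295 to 7460 tags. A same-strand peak within 5000 bp, the distance searched here, can raise the background against which a start peak is judged. Its part in these absences was not tested.

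Among the redox partners, NCP1, which encodes the reductase that feeds electrons to Erg11 and Erg5, had 101 to 756 tags in 7 libraries, while CYB5 had no start peak. The regulators were listed in few libraries. UPC2 had a start peak in synHPRT1R integrated replicate 2 with 288 tags and in synHPRT1 integrated replicate 2 with 232, and in no YAC library. ECM22 had 219 tags in synHPRT1R YAC replicate 2, 243 in synHPRT1 YAC replicate 2, 229 in synHPRT1R integrated replicate 1 and 149 in synHPRT1 integrated replicate 2. Of the sterol acyltransferases, ARE2, the main one in aerobic cells, had 265 and 111 tags in 2 YAC libraries and 295 to 514 in the 4 integrated ones. It had no start peak in the other 2 YAC libraries, so its level was not tested between contexts. ARE1 had 135 to 879 tags in 3 YAC libraries and 116 and 206 in 2 integrated ones.

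YAC libraries held start peaks of 16.5 ± 2.08 members and integrated libraries of 18.5 ± 2.08 (SD, n = 4 each), that is 53.2% and 59.7% of the 31. The counts were 17, 14, 16 and 19 in YAC libraries and 18, 21, 19 and 16 in integrated libraries, and the ranges overlapped. Over all genes the counts were 2426 ± 25.03 and 2498 ± 129, or 40.4% and 41.6%. Within each branch the contexts differed by no more than the SD between libraries, with 4.75 ± 0.50 and 5.25 ± 0.957 mevalonate members and 9.25 ± 1.26 and 9.75 ± 1.5 late members in YAC and integrated libraries.

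**Figure D4:**
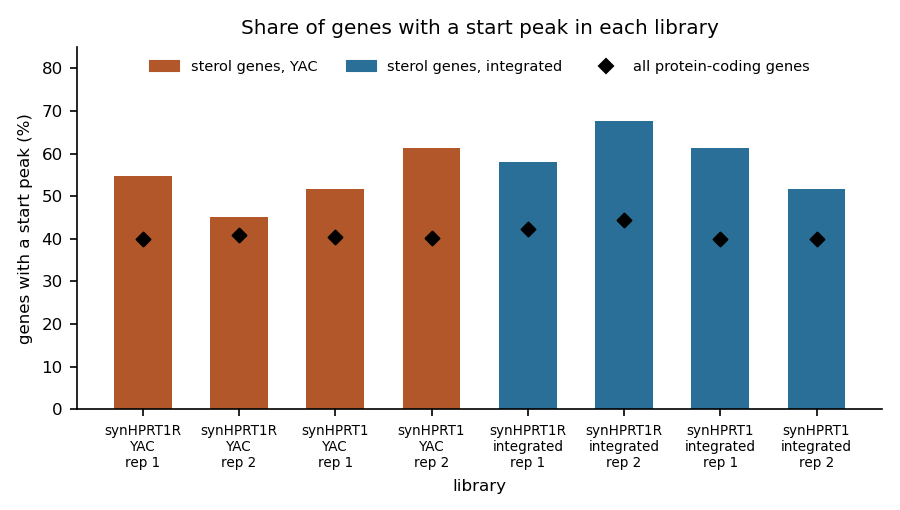
Bars give the percentage of the 31 sterol genes with a start peak in each library (orange YAC, left, and blue integrated, right), and diamonds give the percentage of all 6002 protein-coding genes. Bars run from 45.2% to 67.7% and diamonds from 39.9% to 44.4%, and every bar stands above its diamond.

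No member passed the test of presence between contexts. Fisher's exact test with Benjamini-Hochberg adjustment over 6002 genes called 0 members and 0 genes (0%), and at an unadjusted p under 0.05, which needs 4 libraries against 0 (two-sided p = 0.0286), it gave 0 members and 11 genes (0.183%). An exact Cochran-Mantel-Haenszel test, stratified by replicate number, also gave counts of 0. With so few libraries in a stratum it cannot reach p under 0.05 even unadjusted, so this 0 was fixed in advance. No member had a start peak in at least 3 libraries of one context and at most 1 of the other, against 2.25% of genes toward YAC and 2.5% toward integrated. Members listed in fewer YAC than integrated libraries numbered 11 (35.5%, against 19.7% of genes), 5 in more (16.1%, against 16.3%) and 10 in equal numbers above 0 (against 30.1%). The 11 included UPC2, NCP1, ERG7, ARE2 and MVD1, and 5 of the 11 were HMG1, IDI1, ERG11, ERG29 and ERG5, each listed once. Those listed in more YAC libraries were ARE1, ERG4, ERG26, ERG1 and ERG8.

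Levels were compared between contexts for the 1239 genes with a start peak in every library, 9 of them members. Log2 summit pileups, less the median of these genes on the same strand's list, were fitted with limma with the sequence as covariate. No member passed at an adjusted p of 0.05, higher or lower in YAC libraries, against 25 genes higher (2.02%) and 8 lower (0.646%), together 2.66%, or 21 and 17 when scaled to the genome-wide background, which moved the median of all genes to −0.10. At an unadjusted p under 0.05 the counts were 2 of 9 members and 183 genes (14.8%). The members' median difference was −0.26 and that of all genes −0.02, on the log2 scale. The 33 calls became 17 without synHPRT1 YAC replicate 2, 19 without synHPRT1R integrated replicate 1 and 21 without synHPRT1R integrated replicate 2.

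The 2 members below the unadjusted threshold were ERG3 and ERG20, in opposite directions. On the log2 scale relative to the median gene, ERG3 averaged −0.51 ± 0.897 in YAC libraries, against 0.55 ± 0.134 in integrated ones (SD, n = 4 each). The difference was −1.06 (SE 0.378, 95% interval −1.87 to −0.26, limma adjusted p = 0.177). ERG20 averaged 0.68 ± 0.477 in YAC libraries, against −0.13 ± 0.33 in integrated ones, a difference of 0.81 (SE 0.332, 95% interval 0.11 to 1.51, adjusted p = 0.264). ERG27, in which the contexts did not overlap, differed by −0.65 (SE 0.324, 95% interval −1.34 to 0.04, adjusted p = 0.372). Without synHPRT1R YAC replicate 1, whose summit lay inside MIM2, the difference was −0.61 (adjusted p = 0.534 in limma), and the other 3 YAC libraries lay below the 4 integrated ones. Groups that do not overlap were found for 5.08% of genes in the higher and 4.76% in the lower direction. The other 6 members differed by −0.50 (ERG12) to 0.21 (ERG2), with adjusted p-values of 0.536 to 0.997 in the same limma fit. With 1 library left out the ERG12 difference ran from −1.13 (without synHPRT1 integrated replicate 1) to −0.20 (without synHPRT1 integrated replicate 2).

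**Figure D5:**
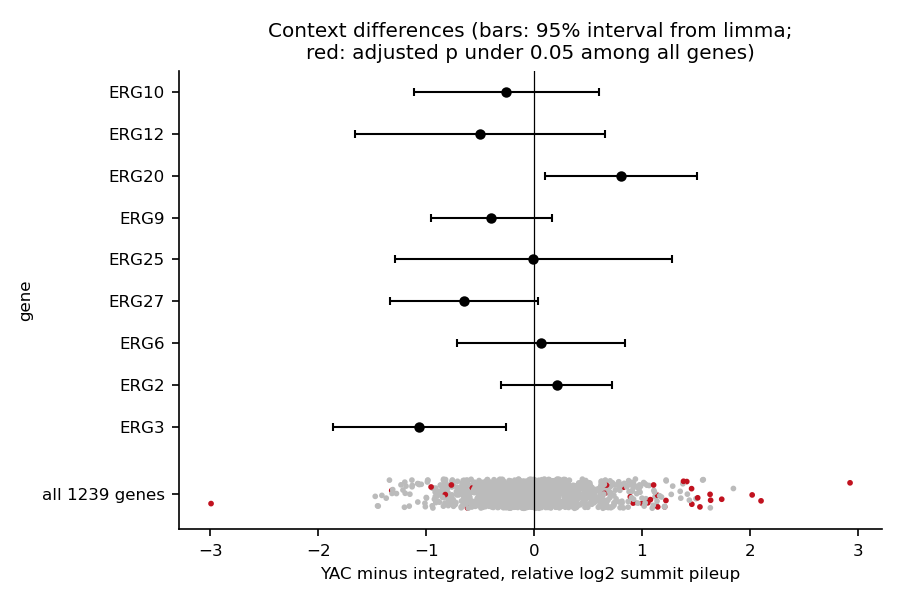
The x axis is the YAC minus integrated difference in relative log2 summit pileup. Black points are the 9 members with 95% intervals from limma, and the bottom row holds all 1239 genes, in red where the adjusted p is under 0.05. The members run from −1.06 (ERG3) to 0.81 (ERG20), within the grey mass of genes.

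No member passed a test between the sequences carried, synHPRT1R and synHPRT1, either. A synHPRT1R library held 17.5 ± 2.89 members with a start peak and a synHPRT1 library 17.5 ± 1.73 (SD, n = 4 each). Fisher's exact test called 0 members and 0 genes (0%), with 0 members and 11 genes (0.183%) at an unadjusted p under 0.05. As between contexts, the adjusted presence test could not call any gene with so few at its smallest possible p. Members with a start peak in more synHPRT1R than synHPRT1 libraries numbered 7 (against 20.7% of genes), in fewer 7 (against 15.7%) and in equal numbers above 0 12 (against 29.8%). No member reached at least 3 libraries of one sequence with at most 1 of the other, against 2.47% of genes toward synHPRT1R and 1.48% toward synHPRT1. In the limma fit 0 members and 0 of 1239 genes passed (0%), with 0 members and 51 genes (4.12%) at an unadjusted p under 0.05. The synHPRT1R minus synHPRT1 differences ran from −0.68 (ERG3, 95% interval −1.48 to 0.13) to 0.69 (ERG25, 95% interval −0.60 to 1.98), all with adjusted p-values of at least 0.938. The ERG3 difference was −0.29 without synHPRT1 YAC replicate 1. No interaction of context and sequence passed in limma, with 1 member, ERG2, and 112 genes (9.04%) at an unadjusted p under 0.05. The ERG2 interaction was 1.03 (SE 0.404, adjusted p = 0.521).

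Other genes of sterol biology were followed from 41 related genes. Of these, 7 (17.1%) were listed with a start peak in all 8 libraries, against 20.6% of all genes. A further 16 (39.0%) were listed in none, against 33.8%. The 7 were MOT3, a repressor of hypoxic genes, NSG1 and NSG2, homologues of the mammalian INSIG proteins that bind HMG-CoA reductase, DAP1, a haem protein partner of Erg11, OSH3 and NPC2 of sterol transport, and COQ1 of the ubiquinone branch. Of 8 genes of sterol uptake and the anaerobic cell wall, many of them Upc2 targets, 5 (62.5%) had no start peak in any library. They were AUS1, PDR11, DAN1, DAN4 and TIR4, and the share over all genes was 33.8%. YAC libraries held 14.2 ± 1.26 related genes with a start peak, against 16.5 ± 1.91 in integrated ones (SD, n = 4 each). These were 34.8% and 40.2% of the 41, against 40.4% and 41.6% of all genes. None of the 7 passed the limma test between contexts, and the lowest adjusted p was 0.279, for DAP1 (difference 1.16).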

How the data were processed

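CAGE was measured in 8 yeast libraries. The submitters' processing notes name build sacCer3, MACS2 2.1.0, Bowtie2 2.2.9, deepTools 3.5.0, SAMtools 1.9 and bcl2fastq 2.20, with no roles. The authors deposited 32 peak lists, 4 per library, for each strand and 2 references, per library and not pooled. The reference with the synthetic sequence as a contig of its own was used, and the one with it inside chromosome XI was an alternative. Deposited values per peak are a fold, the ratio of the summit to its background, and −log10 of a p-value and of a q-value. They are the authors' values per peak and served to rank peaks within a list.

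Fold and −log10 p were taken as (pileup + 1) / (background + 1) and a Poisson tail, and pileup was solved from them with SciPy 1.17.1, the strongest start peak of a gene being used. No read totals are in the files, so depth is unknown. Without molecular identifiers, tags are not independent molecules. Presence was tested with Fisher's exact test (two-sided) and level with limma 3.58.1 in R 4.3.3, both adjusted over all genes tested. The code was tested on simulated data.

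Members and lists were chosen with earlier results of these data known. Values in every library were given for members passing the level test or among its 5 largest differences, those in at least 3 of 4 libraries of one context and at most 1 of the other, the first 3 by median percentile, and HMG1, HMG2, ERG11, UPC2 and ECM22. ERG10, ERG25 and the members listed in 1 library were added after their values were seen. Alternatives were other windows, a −log10 q of 10, equal list lengths, the other reference, other scalings and measures, no covariate, leaving out each library and a replicate block.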

Additional observations from a re-analysis of the deposited data

Results flagged for a closer look

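Of 26 sets of 4 libraries examined (chance alone gives about 1 in 20), 1 held a library set apart from the other 3 by its gap to them. In synHPRT1R YAC replicate 2, 4 mevalonate members had a start peak, against 5 in each of the other 3 YAC libraries. MVD1 is the member missing there. These are counts of few genes, and the gap is 1 gene. The rate of 1 in 20 does not hold for such counts, where any value beside 3 equal ones is set apart.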

How the results depend on the processing

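No member was called for presence or level under any alternative run. For presence this says little, because the libraries were too few for the adjusted test to call single genes. The ERG3 adjusted p ran from 0.0524 to 0.392 over them. The 33 genes called between contexts became 5 with the deposited fold, 18 with the summit required inside the window (6 members and 765 genes tested) and 17 to 32 with 1 library left out. Between sequences 0 genes became 0 to 3 with 1 library left out (1 without synHPRT1 YAC replicate 1 and 3 without synHPRT1R YAC replicate 1). Counting start peaks of at least 200 tags, an alternative chosen after seeing the data, gave 14.25 members in YAC and 15.25 in integrated libraries. Signs turned for small differences between contexts: ERG6 to −0.10 with background scaling, and to −0.030, ERG9 to 0.015 and ERG25 to 0.094 with the fold, and ERG25 to 0.061 with the summit in the window. With 1 library left out, the context difference ran from −0.49 to 0.10 for ERG10, −1.13 to −0.20 for ERG12, −0.80 to 0.52 for ERG25, −0.25 to 0.36 for ERG6 and −0.06 to 0.41 for ERG2, and the sequence difference from −0.089 to 1.23 for ERG25 and −0.83 to −0.29 for ERG3. The cause of these shifts was not tested. A filter on low pileups removed no gene.

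Libraries with the same replicate number did not deviate together (r = −0.058 to 0.0037 across 1239 genes), so no pairing by number was seen in these values. A shared batch that touched few genes would not show in this r. With the replicate block, limma called 30 genes between contexts and 0 members, and the stratified presence test 0. Peak lists show no value for a gene below their threshold, which limits every statement on a missing start peak.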

Other observations

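Sterol genes on the 2 strands differed in how often they were listed, a split looked at after the values were seen and given with no test. Of 12 members on the minus strand, 1 (ERG6) was listed in all 8 libraries and 8 in at most 1: ERG13, HMG1, IDI1, ERG11, ERG26, ERG28, ERG5 and CYB5. Of 19 members on the plus strand, 8 were listed in all 8 libraries and 3 (HMG2, ERG29 and HES1) in at most 1. Over all genes, 19.1% on the minus strand and 22.2% on the plus strand were listed in all 8, and 48.6% and 40.9% in at most 1. Minus-strand lists had the higher genome-wide background, 67.0 to 94.8 tags against 41.0 to 52.7.

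Counting start peaks of at least 200 tags on either strand brought all genes close, with 57.7% of minus-strand and 56.2% of plus-strand genes in at most 1 library. Among the members, 8 of 12 on the minus strand and 4 of 19 on the plus strand were then in at most 1 library. A minimum can only remove start peaks, so these counts could not fall. The part of the background in the members' split was not tested.

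HES1 had no start peak, yet a plus-strand peak lay 1605 to 1716 bp upstream of it in all 8 libraries. That peak had 1550 to 8493 tags and covered the start window of none of the 6002 protein-coding genes. Genes that do not code for protein were not examined, and whether the peak belongs to such a gene was not tested.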
